A study of Zea mays with 24 samples.

Results

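Maize seedlings with the mutant allele dct2-1 of pDCT2, which encodes a dicarboxylate transporter of plastids, were compared with wild-type (WT) seedlings at segment -1 of leaf 2. This segment lies just under the point where the blade leaves the whorl, where the tissue turns from importing sugar to exporting it. Both groups were of the inbred W22, 9 days old, grown at 28 °C and 40% humidity under 500 umol m-2 s-1 of light for 16 h a day. Each group had 3 RNA-seq libraries, and each library pooled 15 plants. The whole series holds 24 libraries in 8 groups, with the same 2 genotypes at segments -4, -1, +4 and +10. Members were all genes that the authors tested at segment -1, which were 18810 of the 39634 genes listed.

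Maize fixes carbon by the C4 route, in which mesophyll cells make malate and aspartate and bundle sheath chloroplasts release the CO2 again for Rubisco. Dicarboxylate transporters of the chloroplast envelope move these acids between compartments. A leaf grows from its base, so segment -1 holds tissue in which this division of labour is being completed, and young maize leaves are also known for high levels of benzoxazinoids, which are defence compounds against insects and fungi.

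The authors' deposited table gives 1 pooled level per gene and group in FPKM (fragments counted per kilobase of a transcript and scaled for sequencing depth), under headings that do not name the genotype. The second column was taken as dct2-1 because pDCT2 (GRMZM2G086258) is low in it, so its level is a description and not a result: 12.5 FPKM in dct2-1 and 657 FPKM in WT. Every level, error and adjusted p given here comes from the authors' deposited table, and a gene is called when its adjusted p is under 0.05. Changes are log2 of the dct2-1 level over the WT level, and the error after ± is the standard error implied by the deposited statistic. A normal p from this error was larger than the deposited p for 99.4% of the 17599 genes above the smallest p. The ± therefore does not give the precision behind a call. No level of a single library is given, so each p depends on how the authors estimated the spread of 3 libraries per group, and read depth is unknown. The smallest adjusted p in the table is 0.000777, and it does not rank the genes that share it.

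Of the 18810 tested genes 3330 were called, or 17.7%. Higher levels in dct2-1 were called for 1784 genes (9.48%) and lower levels for 1546 genes (8.22%). The median change over all tested genes was 0.01, a centre that the normalisation of the table sets. Among called genes with a level in both groups, the median rise was 0.97 and the median fall -0.95, and 859 of the rises and 716 of the falls were at least 2-fold. Rises of at least 8-fold were held by 51 genes and falls of that size by 56. The smallest called change was 0.50 in size, and the median implied standard error over tested genes was 0.415.

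The most abundant transcripts gave few calls. Of 86 genes with a mean level over 1000 FPKM, 2 rose and 5 fell (8.14% called), while 23.7% of the 1028 genes between 100 and 1000 FPKM were called. In the same top class 71 of 86 genes had a lower level in dct2-1, called or not, with a median change of -0.21. The FPKM of all listed genes summed to 747022 in dct2-1 and 800764 in WT. Scaling both groups to the same sum moves every change up by 0.10, and 65 of the 86 genes then stay lower in dct2-1.

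**Figure D1:**
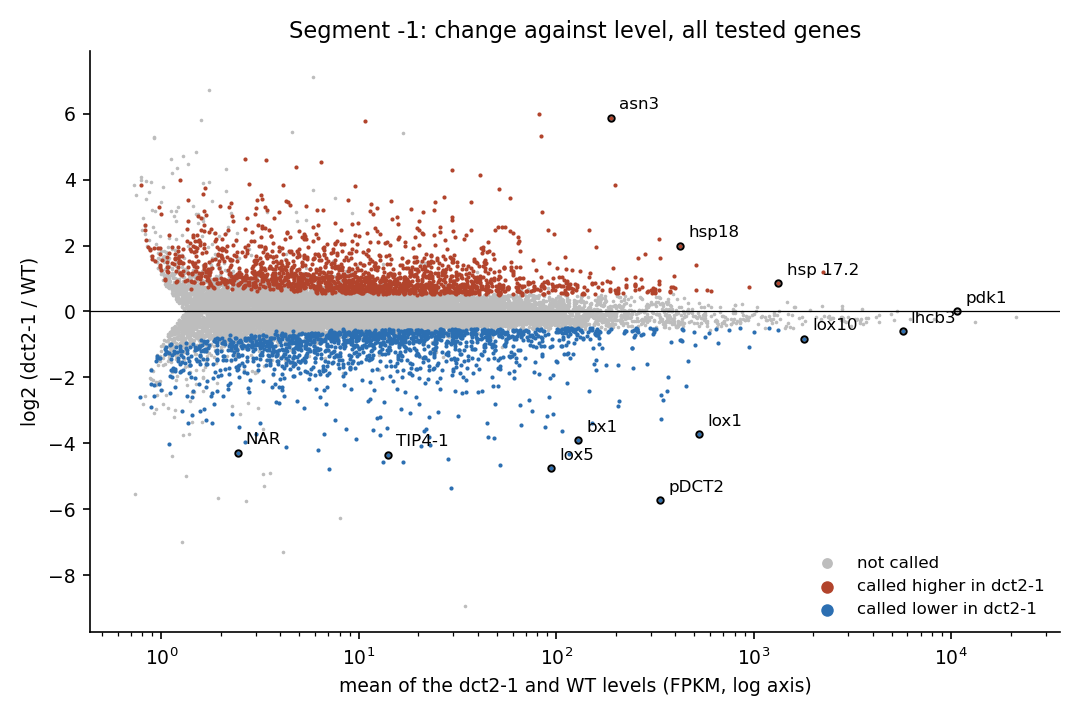
Change between dct2-1 and WT (log2, vertical axis) against the mean of the group levels (FPKM, log axis) for every tested gene with a level above 0 in both groups. Red points were called higher in dct2-1, blue points lower and grey points were not called. Ringed genes are named; asn3 stands at 5.88, while the abundant pdk1 stands at 0.01.

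The tissue carried the markers of a differentiating C4 leaf in both groups. The mesophyll enzyme genes pep1 (phosphoenolpyruvate carboxylase) and pdk1 (pyruvate orthophosphate dikinase) had 3128 and 10747 FPKM in dct2-1, against 3798 and 10645 FPKM in WT. The bundle sheath gene me3 (NADP-malic enzyme) had 2874 FPKM in dct2-1 and 2737 FPKM in WT. The meristem gene kn1 was listed at 0 in both groups, and the ligule genes lg1 and lg2 were under 1 FPKM and not tested. Of 6 mesophyll markers 2 fell and 0 rose, or 33.3% called, against 17.7% over all tested genes. They summed to 20207 FPKM in dct2-1 and 23397 FPKM in WT, of which lhcb3 held 4509 and 6817 FPKM. Of 6 bundle sheath markers other than pDCT2, 1 rose and 0 fell, or 16.7% called. These summed to 11802 FPKM in dct2-1 and 12753 FPKM in WT. The sum over all listed genes was lower in dct2-1 as well, at 747022 FPKM, against 800764 FPKM in WT. These are whole segments, so fewer cells of a type and less RNA per cell cannot be told apart.

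C4 enzyme and transporter genes had mostly small changes beside pDCT2. Leaving out pDCT2, whose level named the columns, 3 of 11 tested members fell and 1 rose, with a median of -0.25. These calls made up 36.4% of the 11, against 17.7% called over all tested genes. The related dicarboxylate transporter gene pDCT1 fell to 78.4 FPKM in dct2-1, against 121 FPKM in WT (-0.62 ± 0.34, the authors' adjusted p = 0.00971). The gene of the oxaloacetate and malate exchanger pOMT1 fell to 353 FPKM in dct2-1, against 512 FPKM in WT (-0.54 ± 0.33, the authors' adjusted p = 0.0344). The remaining fall was that of ppt1, a plastid phosphoenolpyruvate translocator gene, at 3.18 FPKM in dct2-1 and 5.61 FPKM in WT (-0.82 ± 0.48, the authors' adjusted p = 0.0277). PPDK2, a further gene of the dikinase, was the rise, at 55.6 FPKM in dct2-1 and 35.3 FPKM in WT (0.65 ± 0.36). The changes of pep1 (-0.28 ± 0.36), pdk1 (0.01 ± 0.66), me3 (0.07 ± 0.34) and the NADP-malate dehydrogenase gene mdh6 (-0.25 ± 0.33) did not pass.

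Photosynthesis genes outside the C4 cycle gave calls at about the background rate or under it. Light harvesting and thylakoid genes had 2 falls and 0 rises among 25 (8% called), although 23 of the 25 were lower in dct2-1, or 20 when both groups are scaled to equal sums. The falls were lhcb3, a chlorophyll-binding protein of photosystem II, at 4509 FPKM in dct2-1 and 6817 FPKM in WT (-0.60 ± 0.35, the authors' adjusted p = 0.0193), and PSA2, a photosystem I assembly factor, at 83.9 FPKM in dct2-1 and 132 FPKM in WT. Among 10 Rubisco and Calvin-Benson genes, the Rubisco activase gene rca3 rose to 316 FPKM in dct2-1, against 183 FPKM in WT (0.79 ± 0.35). Of 18 chlorophyll and carotenoid genes 2 fell: oy1, a magnesium chelatase subunit, at 204 FPKM in dct2-1 and 332 FPKM in WT, and dxs2, of the plastid isoprenoid route, at 7.64 FPKM in dct2-1 and 29.4 FPKM in WT.

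Counts per group are set against the background of 9.48% higher and 8.22% lower, and no test of a whole group was made. The groups were filled by gene symbol with earlier results of these data known. Since 0 tested genes had under 1 FPKM in both groups, a weakly expressed member could be tested through its higher group alone. Such a member could be called only in the direction of that group.

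**Figure D2:**
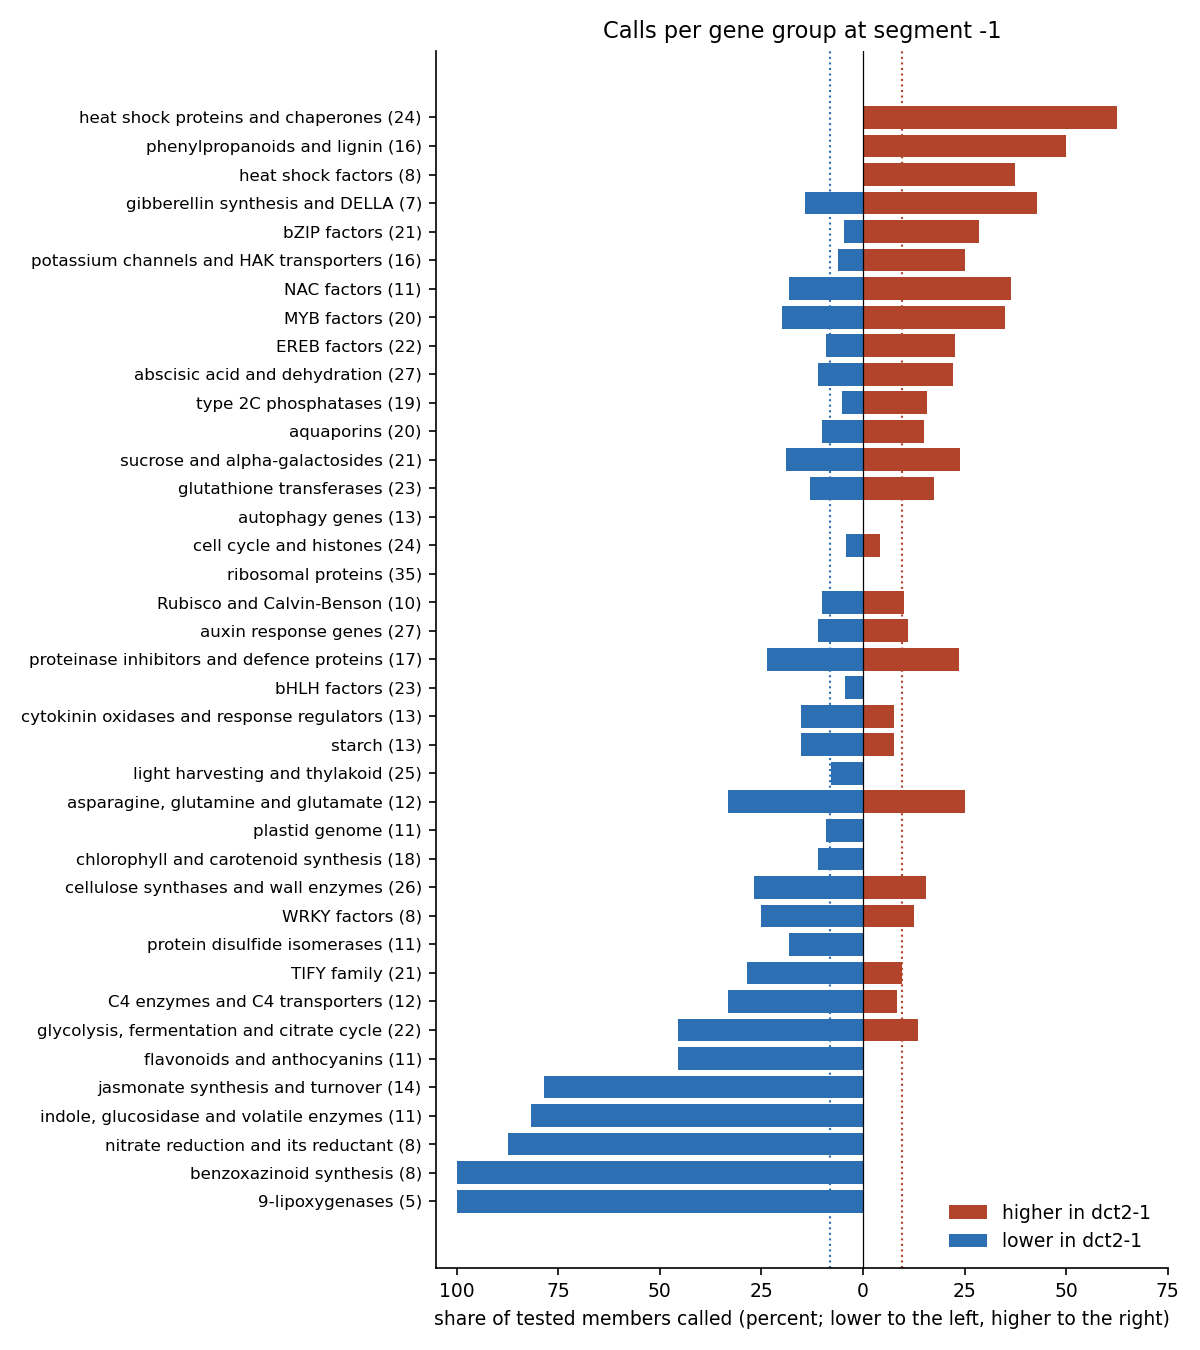
Share of tested members called lower (blue, to the left) and higher (red, to the right) in dct2-1 for each gene group, with the number of tested members in parentheses; the C4 group includes pDCT2. Dotted lines mark the shares over all tested genes, 8.22% lower and 9.48% higher. All 5 9-lipoxygenase genes and all 8 benzoxazinoid genes were called lower, and 15 of 24 heat shock and chaperone genes were called higher. The 9-lipoxygenase gene lox12 had only its WT level over 1 FPKM and could be counted only as lower.

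Lipoxygenases oxidise polyunsaturated fatty acids at carbon 9 or 13 and start the synthesis of oxylipins, among them jasmonate. All 5 tested 9-lipoxygenase genes fell, with a median of -2.44, and their summed level was 95.4 FPKM in dct2-1 and 1235 FPKM in WT. The gene lox5 (GRMZM2G102760; chromosome 5, 12274158 to 12279067 by the deposited locus, whose build is not stated) stood at 6.77 FPKM in dct2-1 and 182 FPKM in WT, 26.9-fold lower (-4.75 ± 0.40). The most abundant member, lox1, stood at 74.4 FPKM in dct2-1 and 987 FPKM in WT, 13.3-fold lower (-3.73 ± 0.38). Its deposited locus is 143 kb long, against a median of 3.8 kb over tested genes, and holds 0 other listed genes. Without lox1 the other 4 genes summed to 21 FPKM in dct2-1 and 248 FPKM in WT. The related lox3 stood at 10.8 FPKM in dct2-1 and 58.7 FPKM in WT (-2.44 ± 0.39). The remaining members, lox4 (-1.07 ± 0.42) and lox12 (-1.70 ± 0.79, or -0.84 with 1 FPKM added to both levels), had under 10 FPKM in both groups. For lox12, at 0.539 FPKM in dct2-1 and 1.75 FPKM in WT, only the WT level was over 1 FPKM. It could therefore be counted only as lower.

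Of 14 tested genes of jasmonate synthesis and turnover 11 fell, with 0 rises and a median of -0.97. For aos3 and lox11 among these falls only the WT level was over 1 FPKM, so they could be counted only as lower. Their changes were -3.29 and -2.47, or -1.63 and -1.39 with 1 FPKM added to both levels. In the order of the route, fad7, a plastid desaturase gene that supplies linolenic acid, stood at 154 FPKM in dct2-1 and 331 FPKM in WT (-1.10 ± 0.36). The 13-lipoxygenase gene lox10, which in maize leaves is known for green leaf volatiles, stood at 1292 FPKM in dct2-1 and 2283 FPKM in WT (-0.82 ± 0.35). The allene oxide synthase genes aos1 and aos2, of the first step committed to jasmonate, fell to 77.8 and 37 FPKM in dct2-1, against 233 and 149 FPKM in WT. Their changes were -1.58 ± 0.36 for aos1 and -2.01 ± 0.36 for aos2. The cyclase gene aoc1 stood at 16.1 FPKM in dct2-1 and 39.3 FPKM in WT (-1.28 ± 0.36). The turnover gene ts5, a cytochrome P450 that inactivates jasmonate, fell as well, to 18.5 FPKM in dct2-1, against 62.3 FPKM in WT (-1.75 ± 0.39). LOX8, the 13-lipoxygenase of tassel sex determination, was the member with a level above WT, at 30.1 FPKM in dct2-1 and 23.7 FPKM in WT, and it did not pass (0.35 ± 0.37, the authors' adjusted p = 0.271). The changes of lox9 and opr8 did not pass either (the authors' adjusted p = 0.0852 and 0.0822).

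The TIFY family, which includes the JAZ repressors of jasmonate signalling, was divided. Of 21 tested members 6 fell and 2 rose. The largest fall was that of TIFY29, at 2.16 FPKM in dct2-1 and 6.34 FPKM in WT (-1.55 ± 0.62). TIFY17 stood at 16.6 FPKM in dct2-1 and 43.8 FPKM in WT (-1.40 ± 0.36), and TIFY25 at 35.2 FPKM in dct2-1 and 86.5 FPKM in WT (-1.30 ± 0.44). The rises were those of TIFY10, at 12.4 FPKM in dct2-1 and 5.73 FPKM in WT (1.12 ± 0.56), and TIFY4, at 158 FPKM in dct2-1 and 89.2 FPKM in WT (0.83 ± 0.39).

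Benzoxazinoids are made from indole by a chain of enzymes, most of whose genes lie close together. All 8 tested genes fell, with a median of -2.26, and summed to 580 FPKM in dct2-1 and 2654 FPKM in WT. The entry gene bx1, an indole-forming lyase, stood at 16.1 FPKM in dct2-1 and 240 FPKM in WT, 14.9-fold lower (-3.90 ± 0.38). Its neighbour bx2, the first of the cytochrome P450 genes, stood at 11.2 FPKM in dct2-1 and 222 FPKM in WT, 19.8-fold lower (-4.31 ± 0.39). The later P450 genes changed less: BX3 had 156 FPKM in dct2-1 and 750 FPKM in WT (-2.27 ± 0.34), BX4 had 147 FPKM in dct2-1 and 587 FPKM in WT (-2.0 ± 0.35), and BX5 had 100 FPKM in dct2-1 and 579 FPKM in WT (-2.53 ± 0.35). The glucosyltransferase genes bx8 and bx9, whose enzymes attach the sugar, stood at 16.5 and 131 FPKM in dct2-1, against 79 and 190 FPKM in WT. Their changes were -2.26 ± 0.36 for bx8 and -0.53 ± 0.33 for bx9 (the authors' adjusted p = 0.035 for bx9). The deposited coordinates place bx1, bx2, BX3, BX4, BX5 and bx8 on chromosome 4 between 2998633 and 3262840, and bx9, with the smallest fall, on chromosome 1. No test compared the size of the falls between genes.

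Genes for indole, volatile and glucosidase enzymes fell in 9 of 11 cases. Igl, which releases free indole as a volatile, stood at 5.72 FPKM in dct2-1 and 19 FPKM in WT (-1.73 ± 0.46). The anthranilate methyltransferase gene AAMT1 stood at 26.7 FPKM in dct2-1 and 277 FPKM in WT, 10.4-fold lower (-3.38 ± 0.41). Its relatives AAMT2 (-3.08 ± 0.42) and AAMT3 (-1.09 ± 0.35) fell too, as did CYP92C5 (-2.04 ± 0.38) and CYP92C6 (-1.46 ± 0.39), P450 genes of homoterpene volatiles. The terpene synthase genes tps4-B73 and tps5-B73 were listed at 0 in dct2-1, against 1.95 and 1.76 FPKM in WT. They are near-identical copies, so reads could be split between them. Beta-glucosidases free benzoxazinoids from their glucosides. Among their genes, glu1 fell at low levels, to 0.512 FPKM in dct2-1, against 1.76 FPKM in WT. Its change was -1.78, or -0.87 with 1 FPKM added to both levels (the authors' adjusted p = 0.0279). The abundant glu2, at 2340 FPKM in dct2-1 and 2104 FPKM in WT, did not pass (0.15 ± 0.33, the authors' adjusted p = 0.636). The other member of the group that did not pass had its lowest change, -7.29. For glu1, tps4-B73 and tps5-B73 only the WT level was over 1 FPKM. As 0 tested genes had under 1 FPKM in both groups, such genes could be counted only as lower.

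Defence proteins had 4 rises and 4 falls among 17 tested members, or 1 rise and 4 falls at an adjusted p under 0.01. At that limit 1106 of all 18810 tested genes were higher and 929 lower. For the members chiA and glucA, which rose, only the dct2-1 level was over 1 FPKM, so they could be counted only as higher. The maize proteinase inhibitor gene MPI rose to 340 FPKM in dct2-1, against 203 FPKM in WT (0.74 ± 0.38, the authors' adjusted p = 0.00703). The cystatin gene psei2 fell to 241 FPKM in dct2-1, against 689 FPKM in WT (-1.52 ± 0.33). The ribosome-inactivating protein gene rip2 fell to 101 FPKM in dct2-1, against 312 FPKM in WT (-1.63 ± 0.34). Pep1, the precursor gene of a defence peptide, rose at low levels, with 3.58 FPKM in dct2-1 and 1.08 FPKM in WT (1.72 ± 0.87, or 1.14 with 1 FPKM added to both levels, the authors' adjusted p = 0.0311).

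Nitrate is reduced to nitrite by nitrate reductase and then to ammonium by nitrite reductase, which takes electrons from ferredoxin. Genes of this route and of its reductant supply fell in 7 of 8 cases, with a median of -1.24. The nitrate reductase gene NAR stood at 0.238 FPKM in dct2-1 and 4.62 FPKM in WT (-4.28 ± 0.76, or -2.18 with 1 FPKM added to both levels). Only its WT level was over 1 FPKM, so NAR could be counted only as lower. The more abundant NNR1, also of nitrate reductase, stood at 15.7 FPKM in dct2-1 and 36.9 FPKM in WT (-1.24 ± 0.34). The nitrite reductase gene NIR stood at 41.9 FPKM in dct2-1 and 72.5 FPKM in WT (-0.79 ± 0.36, the authors' adjusted p = 0.0049). The ferredoxin genes FDX6 and fdx3, the reductase gene fnr1 and the plastid 6-phosphogluconate dehydrogenase gene pgd3 belong to the non-photosynthetic supply of reduced ferredoxin. Of these pgd3 fell most, to 4.19 FPKM in dct2-1, against 18.5 FPKM in WT (-2.14 ± 0.40). FDX6 had 18.9 FPKM in dct2-1 and 52.8 FPKM in WT (-1.48 ± 0.36). The photosynthetic ferredoxin genes FDX1 and fdx2, at over 1000 FPKM in both groups, changed by -0.12 ± 0.33 and -0.23 ± 0.33 and did not pass.

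**Figure D3:**
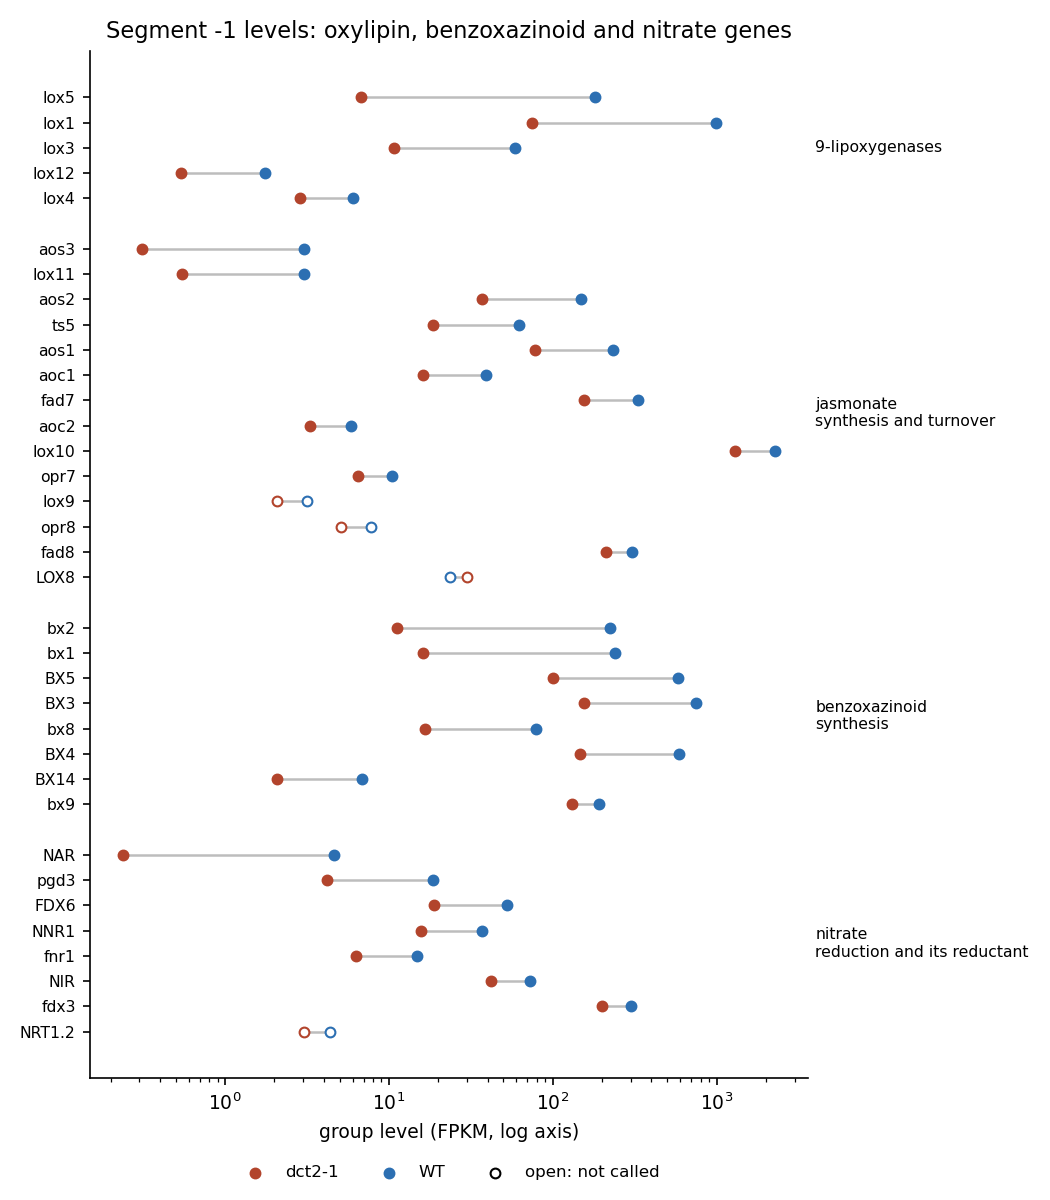
Levels (FPKM, log axis) in dct2-1 (red) and WT (blue) of the tested 9-lipoxygenase, jasmonate, benzoxazinoid and nitrate genes, ordered by change within each group, with called genes filled and others open. WT lies to the right of dct2-1 for every gene plotted except LOX8, which was not called.

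Asparagine synthetase transfers an amide group from glutamine to aspartate, and asparagine carries nitrogen at a low cost in carbon. Of 12 genes of asparagine, glutamine and glutamate metabolism 3 rose and 4 fell. The asparagine synthetase gene asn3 (GRMZM2G053669; chromosome 1, 45114257 to 45118291 by the deposited locus) stood at 370 FPKM in dct2-1 and 6.28 FPKM in WT, 59-fold higher (5.88 ± 0.38). Its paralogues did not share this: asn2 fell to 4.53 FPKM in dct2-1, against 11.6 FPKM in WT (-1.35 ± 0.43), and asn1, with 54.7 FPKM in dct2-1 and 65.2 FPKM in WT, did not pass (-0.25 ± 0.33). The cytosolic glutamine synthetase gene gln2 rose to 44.1 FPKM in dct2-1, against 7.41 FPKM in WT (2.58 ± 0.74), while gln5 fell to 56.6 FPKM in dct2-1, against 117 FPKM in WT (-1.04 ± 0.34). The lysine-degrading gene lkrsdh1 rose to 44.4 FPKM in dct2-1, against 14.4 FPKM in WT (1.63 ± 0.44). The glutamate dehydrogenase gene gdh1 fell to 22 FPKM in dct2-1, against 43 FPKM in WT (-0.97 ± 0.36).

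Of 24 heat shock and chaperone genes 15 rose and 0 fell, with a median of 0.69. Their summed level was 6522 FPKM in dct2-1 and 4097 FPKM in WT. The small heat shock protein genes, which hold unfolded proteins in solution, included hsp18 at 674 FPKM in dct2-1 and 169 FPKM in WT (2.00 ± 0.36). Zmhsp 17.2 (GRMZM2G158232), the most abundant, stood at 1720 FPKM in dct2-1 and 943 FPKM in WT (0.87 ± 0.35), and hsp18c had the largest change, at 57.9 FPKM in dct2-1 and 11.5 FPKM in WT (2.33 ± 0.42). The chaperone gene hsp82 rose to 102 FPKM in dct2-1, against 28.7 FPKM in WT (1.82 ± 0.36). Its relatives HSP90-1 (0.39 ± 0.33) and HSP90-2 (0.31 ± 0.33) did not pass. Nor did the endoplasmic reticulum chaperone genes bip1 (0.27 ± 0.36) and bip2 (0.33 ± 0.36). The sources used here do not say how reads shared by near-identical genes were counted, so the split among small heat shock genes is uncertain, and the 2 models of HSP60-1 belong to 1 RefSeq gene. Of 8 heat shock factor genes 3 rose, among them hstf2, at 11.3 FPKM in dct2-1 and 5.79 FPKM in WT (0.97 ± 0.40).

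Of 16 phenylpropanoid and lignin genes 8 rose and 0 fell, with a median of 0.56. Laccases polymerise lignin precursors in the wall, and LAC1 rose to 84.5 FPKM in dct2-1, against 33.2 FPKM in WT (1.35 ± 0.34). One Laccase-13 gene rose to 201 FPKM in dct2-1, against 112 FPKM in WT (0.85 ± 0.39), and lac5 to 24.7 FPKM in dct2-1, against 11.8 FPKM in WT (1.06 ± 0.38). The gene myb42, a MYB factor known in maize as a repressor of lignin genes, rose as well, to 11.9 FPKM in dct2-1, against 4.4 FPKM in WT (1.43 ± 0.45). The cellulose synthase gene CesA12, of secondary walls, rose to 18.8 FPKM in dct2-1, against 11.6 FPKM in WT (0.70 ± 0.35).

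**Figure D4:**
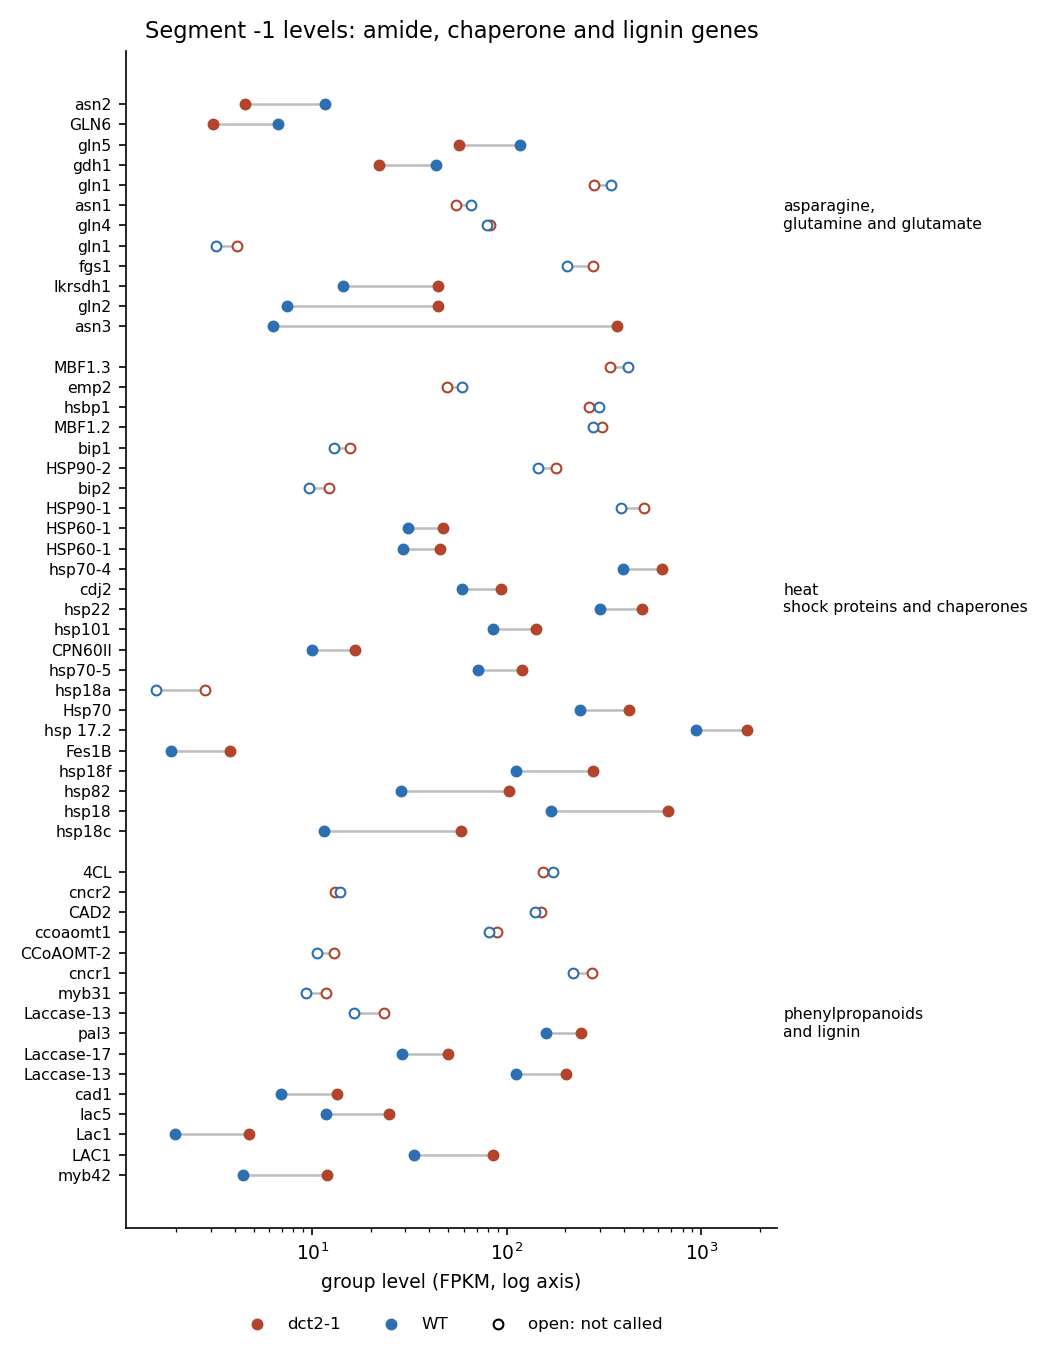
Levels (FPKM, log axis) in dct2-1 (red) and WT (blue) of the tested amide, heat shock and chaperone, and phenylpropanoid and lignin genes, ordered by change within each group, with called genes filled and others open. Every filled gene of the chaperone and lignin groups has dct2-1 to the right of WT, while the amide group holds asn3 at 370 FPKM in dct2-1 and 6.28 FPKM in WT beside falls of asn2, GLN6, gln5 and gdh1.

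Wall genes as a whole gave 4 rises and 7 falls among 26. The beta-expansin gene expB4, of a family that loosens growing walls, fell to 25.9 FPKM in dct2-1, against 158 FPKM in WT (-2.61 ± 0.36), and expa1, an alpha-expansin gene, to 12 FPKM in dct2-1, against 31.3 FPKM in WT (-1.38 ± 0.36). The cellulose synthase genes CesA-2 (-0.60 ± 0.33) and CesA-4 (-0.69 ± 0.33) fell. One hydroxyproline-rich glycoprotein gene, HRGP (GRMZM2G168651), rose to 16 FPKM in dct2-1, against 1.55 FPKM in WT (3.37 ± 0.54). The transglycosylase gene xet1 rose to 29.3 FPKM in dct2-1, against 10.1 FPKM in WT (1.53 ± 0.37). In the flavonoid branch 5 of 11 genes fell and 0 rose. The chalcone isomerase gene chi1 stood at 51 FPKM in dct2-1 and 107 FPKM in WT (-1.07 ± 0.34), and the chalcone synthase gene c2 at 82.5 FPKM in dct2-1 and 130 FPKM in WT (-0.66 ± 0.33).

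Carbohydrate genes moved both ways. Among 21 genes of sucrose and alpha-galactosides 5 rose and 4 fell. Alkaline alpha-galactosidases release galactose from raffinose sugars: AGA2 rose to 35.9 FPKM in dct2-1, against 16.8 FPKM in WT (1.09 ± 0.35), and AGA3b to 7 FPKM in dct2-1, against 0.855 FPKM in WT (3.03 ± 0.62), while AGA1 fell to 8.99 FPKM in dct2-1, against 22.6 FPKM in WT (-1.33 ± 0.59). For AGA3b, and for AGA3a, which rose as well, only the dct2-1 level was over 1 FPKM, so they could be counted only as higher. The sucrose synthase genes sus2 (1.48 ± 0.41) and sh1 (0.74 ± 0.36) rose. The vacuolar sucrose transporter gene sut4 fell to 11.6 FPKM in dct2-1, against 30.8 FPKM in WT (-1.41 ± 0.80, the authors' adjusted p = 0.0357), and the phloem loading gene sut1, at 59.6 FPKM in dct2-1 and 69.3 FPKM in WT, did not pass (-0.22 ± 0.35). Of 13 starch genes 1 rose and 2 fell, the larger fall being that of the starch phosphorylase gene pho1, at 4.45 FPKM in dct2-1 and 13.2 FPKM in WT (-1.56 ± 0.39).

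Among 22 genes of glycolysis, fermentation and the citrate cycle 10 fell and 3 rose. The enolase gene eno1 stood at 39.5 FPKM in dct2-1 and 88.9 FPKM in WT (-1.17 ± 0.34). The pyruvate decarboxylase gene pdc3 stood at 2.38 FPKM in dct2-1 and 8.32 FPKM in WT (-1.80 ± 0.46). The alcohol dehydrogenase genes went opposite ways, with adh1 at 6.45 FPKM in dct2-1 and 16.2 FPKM in WT (-1.33 ± 0.42) and adh2 at 4.45 FPKM in dct2-1 and 2.07 FPKM in WT (1.11 ± 0.51). The malate synthase gene mas1, of the glyoxylate cycle, rose to 4.83 FPKM in dct2-1, against 0.901 FPKM in WT (2.42 ± 0.60).

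Among 27 dehydration and abscisic acid genes 6 rose and 3 fell. The dehydrin gene dhn1 rose to 52 FPKM in dct2-1, against 7.1 FPKM in WT (2.87 ± 0.45), but the more abundant dhn2, at 613 FPKM in dct2-1 and 644 FPKM in WT, did not pass (-0.07 ± 0.36). The DRE-binding factor gene dbf1 rose to 114 FPKM in dct2-1, against 38.9 FPKM in WT (1.55 ± 0.36), and DREB2A to 23.9 FPKM in dct2-1, against 9.56 FPKM in WT (1.32 ± 0.41). Among 20 aquaporin genes 3 rose and 2 fell. The tonoplast gene TIP4-1 had the largest change, at 1.31 FPKM in dct2-1 and 26.6 FPKM in WT (-4.34 ± 0.71), while the plasma membrane gene PIP2-6 rose to 8.83 FPKM in dct2-1, against 1.82 FPKM in WT (2.28 ± 0.57). In gibberellin synthesis the kaurene synthase gene eks1 fell to 34.6 FPKM in dct2-1, against 128 FPKM in WT (-1.89 ± 0.34). The downstream oxidase gene d3 rose to 11 FPKM in dct2-1, against 5.29 FPKM in WT (1.06 ± 0.40), as did d9, a DELLA repressor gene, to 26.8 FPKM in dct2-1, against 15.6 FPKM in WT (0.78 ± 0.35).

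Transcription factor families differed in their counts. Of 21 bZIP genes 6 rose and 1 fell, led by bZip112 at 44.4 FPKM in dct2-1 and 4.42 FPKM in WT (3.33 ± 0.47). Of 22 EREB genes, encoding ethylene-response-type factors, 5 rose and 2 fell, led by EREB94 at 17.8 FPKM in dct2-1 and 1.28 FPKM in WT (3.79 ± 0.66) and DBP4 at 9.76 FPKM in dct2-1 and 1.05 FPKM in WT (3.21 ± 0.65). MYB genes had 7 rises and 4 falls of 20, and MYB112 rose to 64.7 FPKM in dct2-1, against 23.2 FPKM in WT (1.48 ± 0.35). Of 23 bHLH genes 0 rose and 1 fell. At an unadjusted p under 0.05, 1 bHLH gene rose and 3 fell in the Cuffdiff test, while 5511 of all 18810 tested genes passed that limit.

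Ribosomal protein genes gave 0 calls among 35 in the Cuffdiff test, and their changes lay between -0.42 and 0.35. At an unadjusted p under 0.05 they gave 0 as well, against 5511 of all 18810 tested genes. Autophagy genes likewise gave 0 calls among 13, and 0 at an unadjusted p under 0.05, with changes between -0.32 and 0.49. Cell cycle and histone genes gave 1 rise and 1 fall among 24. The rise was that of cycD1, a cyclin gene at 1.38 FPKM in dct2-1 and 0.377 FPKM in WT (1.87 ± 0.93, or 0.79 with 1 FPKM added to both levels). The fall was that of the histone gene H4C13, at 1.7 FPKM in dct2-1 and 12 FPKM in WT (-2.82 ± 2.06, the authors' adjusted p = 0.0317).

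The other segments were tested by the authors in tables of their own, normalised separately, with the column low in pDCT2 again taken as dct2-1, so changes are given side by side and their difference between segments was not tested. Of genes called higher at -1 and tested in the other table, 49.3% were called higher at -4, 46.3% at +4 and 47.7% at +10. Over all genes tested in both tables these shares were 16.9%, 19.4% and 21.6%. Calls in the opposite direction were held by 3.21% of the rises at -4, 13.2% at +4 and 14.9% at +10. The shared rises made up 25.9% of the higher calls at -4, 20.9% at +4 and 18.9% at +10 that were tested at -1. Of genes called lower at -1, 27.5% were called lower at -4, 69.7% at +4 and 58.9% at +10, against 10.5%, 22.9% and 21.9% over all genes tested in both tables. Of these falls 11.3% were called higher at -4, 3.59% at +4 and 6.98% at +10. The shared falls made up 19.9%, 24.4% and 20.3% of the lower calls at -4, +4 and +10. Of the 1216 rises tested in all 4 segments, 320 were called higher in every segment and 174 in no other segment in either direction. Of the 1019 such falls, 177 were called lower in every segment and 127 in no other.

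**Figure D5:**
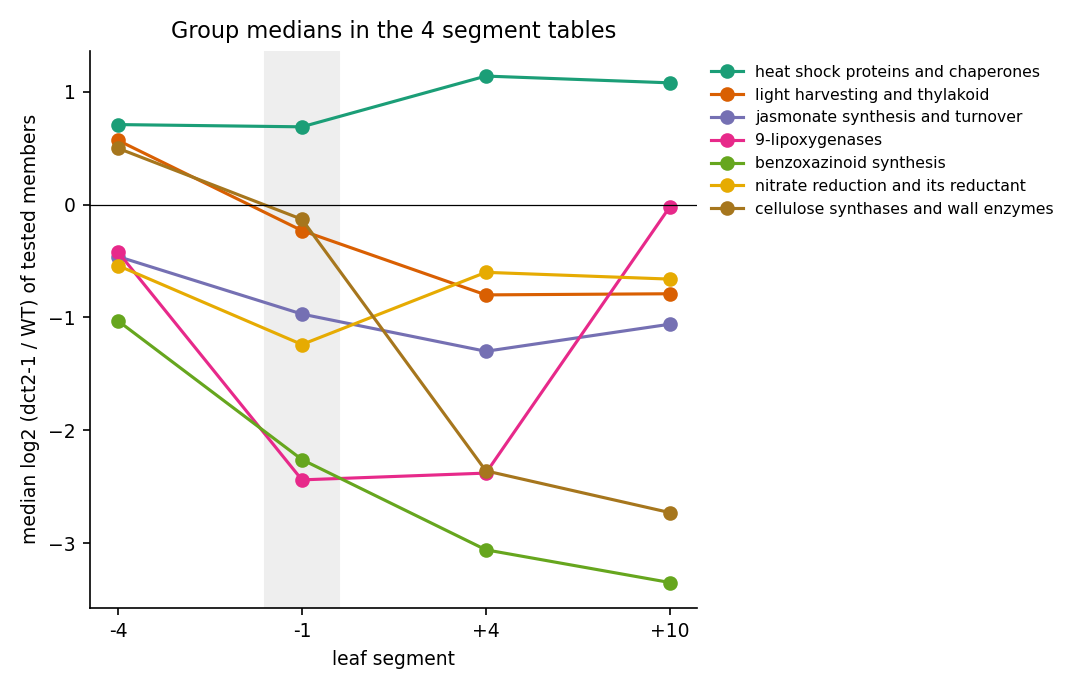
Median change (log2 of dct2-1 over WT) of the tested members of 7 gene groups in the tables of segments -4, -1, +4 and +10, with segment -1 shaded. The tested members differ between segments, with 5 9-lipoxygenase genes at -1 and 3 at +10, and lines join separate tables only to guide the eye.

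Single genes took several courses along the leaf. The rise of asn3 was called in all 4 tables, at 4.87 in segment -4, 5.88 in -1, 6.03 in +4 and 6.71 in +10. For lox5 the change was 0.10 at -4, which was not called, -4.75 at -1 and -4.13 at +4, and the gene was not tested at +10. The wall gene expB4 rose by 0.68 at -4 and fell by 2.61 at -1 and by 5.69 at +4, and its change of -3.27 at +10 was not called. The C4 gene pDCT1 rose by 0.52 at -4 and fell by 0.62 at -1, by 1.36 at +4 and by 1.24 at +10. The tables differ in how many genes they call, with 27.9% of tested genes called at -4, 17.7% at -1, 42.2% at +4 and 43.8% at +10. Light harvesting and thylakoid genes had 15 rises and 0 falls of 24 at -4, 0 and 2 of 25 at -1, 1 and 18 of 25 at +4, and 1 and 16 of 25 at +10, with medians of 0.57, -0.23, -0.80 and -0.79. Wall genes followed the same order of signs, with medians of 0.50 at -4, -0.13 at -1, -2.36 at +4 and -2.73 at +10. The 8 benzoxazinoid genes tested at -4 and at -1 were called lower in both, and the 7 tested at +4 and the 7 tested at +10 were also called lower.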

How the data were processed

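The authors aligned reads with GSNAP and ran Cuffdiff for the comparison, as the submitters' processing notes list. The sources used here give no versions, genome build, annotation or rule for strand and shared reads. The authors' deposited table holds 1 FPKM per gene and group, pooled over the group's libraries, a test statistic (here a score), and a p-value and q-value for genes of status OK. The deposited fold change was not used. Changes were recomputed as log2 of the FPKM ratio with no pseudocount, and no fold was given where a level was 0. The implied standard error is the change over the statistic; a normal p from it was larger than the deposited p-value for 99.4% of the 17599 genes above the smallest p of 5e-05. Calls are the authors' deposited q under 0.05. A separate Benjamini-Hochberg step was tested on simulated data and took no part in these calls. Groups came from the labels, and the mutant column of each table from the low level of pDCT2, since the headers name only q1 and q2. RefSeq symbols (assembly Zm-B73-REFERENCE-NAM-5.0) matched 18775 of 39634 identifiers, and 2555 had a usable symbol. Members and lists were chosen with earlier results of these data known. Named genes were drawn from the 12 largest called rises and falls with a symbol and at least 5 FPKM, and from up to 6 called members per list and direction. C4 and marker genes and the largest FPKM differences were drawn on too, and not every such gene is named. Others were chosen after their values were seen. Python 3.11.15, pandas 2.3.3, numpy 2.4.6 and matplotlib 3.10.9 were used.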

Additional observations from a re-analysis of the deposited data

How the results depend on the processing

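No paired analysis was possible because the table holds no value per library, and for the same reason leaving out each replicate was not run. The number of calls depended on the threshold. With an adjusted p under 0.01, 2035 genes were called, 1106 higher and 929 lower in dct2-1. With a change of at least 2-fold, 1589 were called, 863 higher and 726 lower. With at least 5 FPKM in the higher group there were 2671 calls, 1419 higher and 1252 lower. The other planned settings could not change a call. Equal FPKM sums and median centring move every change alike, by 0.10 and -0.01, the smallest called change was 0.50, and 0 tested genes had under 1 FPKM in both groups. With 1 FPKM added, changes at low levels shrank most, for NAR to -2.18, for AGA3a to 1.73 and for Hb2 to -2.62. Of 129 recomputed group medians 47 moved by more than 0.1 on the log2 scale. Equal FPKM sums move every median alike by 0.10, the size of this limit, so a move under that setting was fixed in advance. Only 2 medians changed sign, those of cell cycle and histone genes and of ribosomal protein genes, which were within 0.08 of 0. Of 172 recomputed group counts 56 moved by over 1.5 times. Unknown depth and 3 pooled libraries per group limit what can be detected, and genes that share reads cannot be separated.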

Other observations

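Several called genes fell outside the groups described. In the authors' deposited table INO1, an inositol phosphate synthase gene, stood at 743 FPKM in dct2-1 and 279 FPKM in WT (1.42 ± 0.38), and grp1, a glycine-rich protein gene, at 607 FPKM in dct2-1 and 1289 FPKM in WT (-1.09 ± 0.34). The haemoglobin gene Hb2 stood at 0.468 FPKM in dct2-1 and 8.04 FPKM in WT (-4.10 ± 0.90, the authors' adjusted p = 0.0201). Of 23 glutathione transferase genes 4 rose and 3 fell, among them GST39 at 8.57 FPKM in dct2-1 and 1.77 FPKM in WT (2.27 ± 0.68) and GST25 at 3.05 FPKM in dct2-1 and 42.4 FPKM in WT (-3.80 ± 0.55). Potassium channel and HAK transporter genes had 4 rises and 1 fall of 16, and HAK10 rose to 59.9 FPKM in dct2-1, against 31.9 FPKM in WT (0.91 ± 0.34).

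Some of the largest changes belong to genes with no symbol in the table used here. GRMZM2G468111 stood at 160 FPKM in dct2-1 and 2.51 FPKM in WT (6.0 ± 0.59), and GRMZM2G141026 at 1.39 FPKM in dct2-1 and 57.2 FPKM in WT (-5.36 ± 0.59). Of the 3330 called genes 2911 had no usable symbol, so the groups described cover a small share of the calls. Within 5 Mb of pDCT2 on either side, in the deposited coordinates, 10 of 74 tested genes were higher in dct2-1 and 6 lower, or 21.6% called, against 10.5% of 19 genes within 1 Mb, 17.8% of 174 genes within 10 Mb and 17.7% over all tested genes.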
